A study of Zea mays with 9 samples.

Results

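The genes described here are the 298 rows of the coverage table whose identifiers run from Zm00001d000001 to Zm00001d001700 by number, out of 38703 rows in all. In this maize gene set the lowest numbers are given to genes on contigs that were not placed on a chromosome, and these rows are called contig genes below. The members present ran from Zm00001d000001 to Zm00001d000458, and the next identifier in the table was Zm00001d001763, so the upper end of the range fell in an empty stretch of numbers. The last gene inside, Zm00001d000458, had a mean scaled coverage of 774.7 ± 98.9 (SD, n = 3) at 0 h, and the first outside, Zm00001d001763, had 1181 ± 152 (SD, n = 3). Choosing by identifier used no measured value.

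The assay was ATAC-seq, which marks open chromatin by letting a transposase cut it and insert sequencing adapters. The nuclei came from frozen roots of maize B73 seedlings in 3 groups of 3 libraries, at 0 h, 6 h and 12 h, which the series calls biological replicates. The agent label of all groups, 0 h included, is tunicamycin, an inhibitor of N-linked glycosylation that stresses the endoplasmic reticulum, and the treatment label gives 5 mg per ml in DMSO. No untreated library at 6 h or 12 h was analysed here, so time and drug cannot be told apart, and the labels name both root and protoplasts as the material. Nothing states that libraries came from separate plants, so p-values speak of the spread among the libraries, which may be technical.

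A genome assembly is built from overlapping sequence stretches called contigs, which are then ordered along chromosomes with the help of genetic and physical maps. Contigs stay unplaced when they are short, carry no map marker or consist mostly of repeats, and repeats fill most of the maize genome. Genes on such contigs are often close copies of genes elsewhere, and a read that matches several places equally well can be counted at any of them or at none. What the authors did with such reads is not stated in the labels. The deposited table holds identifiers and values but no positions. No reference used here pairs identifiers of this gene set, inside or outside the contig genes, with names or sequences. That 0 of the 298 identifiers matched the RefSeq gene table therefore says nothing about the contig genes in particular. No gene name, function or sequence is attached to them.

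The order of the rows in the table bore on the choice of genes. The 298 contig genes filled the first 298 rows, and 10 further blocks of rows followed, as many as maize has chromosomes. Within the 10 blocks between 99.9% and 100% of successive rows had rising numbers, against 84.5% in the contig genes. The numbers of the contig genes rose in short runs and then jumped, an order that the table does not explain. Between 1 and 458, 65.1% of the numbers had a row, while in the other blocks 73.4% to 76.1% of the numbers had one.

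Coverage is given in read bases per gene. Low values piled up on multiples of 73, so 73 is taken as the coverage of 1 read, and scaled coverage is the deposited value divided by a library scale factor. Library totals ran from 28.9 to 39.1 megabases, or 396306 to 536001 reads of 73 bases, and all totals at 6 h were below all others. The contig genes held between 2804 and 3708 reads per library. Their median gene had 9.31 reads, which limits the precision for single genes, and reads copied by PCR are not independent molecules.

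Contig genes had lower coverage than the rest of the table over most of their range, up to the 95th percentile, which was 1843 against 1948. Their median scaled coverage over the 9 libraries was 679.7, against 804 for the 38405 other rows. The ratio of the medians was between 0.806 and 0.904 in single libraries, below 1 in 9 of 9. The quartiles were 416 and 1061 for the contig genes and 497.5 and 1211 for the other rows. The median of the contig genes was also below that of each of the 10 other blocks, which had medians from 759 to 850.3. Of the contig genes, 48 (16.1%) fell in the lowest decile of all rows and 24 (8.05%) in the highest.

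**Figure D1:**
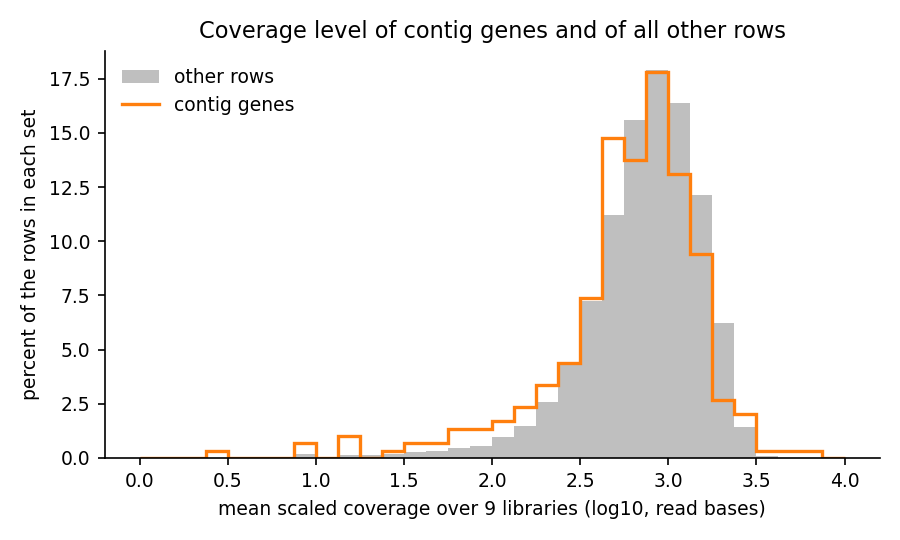
Mean scaled coverage over 9 libraries on a log10 axis, with the percent of contig genes (line) and of other rows (filled) in each bin. The contig genes have a heavier lower tail, with 11.7% under 200 against 5.79% of the other rows. The lowest contig gene is at 2.94 and the lowest other row at 0.747. The highest contig gene, at 6097, lies above the highest other row, at 4867.

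A few contig genes were among the most covered rows of the whole table. Of the 298 contig genes 13 (4.36%) had a mean of 2000 or more, close to the 4.40% of the other rows. Yet by the mean over the 9 libraries 3 of the 20 most covered rows were contig genes, which make up 0.77% of the rows. That mean includes the later libraries. In the 0 h libraries Zm00001d000272 had ranks 423, 565 and 389, against 70, 4 and 2 at 6 h. Zm00001d000260 had ranks 16, 187 and 101 at 0 h, against 2, 3 and 5 at 6 h. The 10 contig genes of highest mean held 13.4% of the coverage on all contig genes.

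Zm00001d000417 was the most covered of all 38703 rows. Its scaled coverage was 6083, 4949 and 4436 in the 0 h libraries, 6202, 7705 and 8133 at 6 h, and 5745, 4993 and 6628 at 12 h. It was the highest row in 7 of the 9 libraries, and had rank 3 in 0 h replicate 2 and rank 7 in 0 h replicate 3. The lowest 6 h library was above all libraries at 0 h, and the 12 h libraries overlapped with both other times. Its neighbour in the table, Zm00001d000418, had a mean of only 413.

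Zm00001d000260 had rank 4 among all rows by its mean of 4315. It held 4028, 3063 and 3342 at 0 h, 5375, 5303 and 4693 at 6 h, and 3989, 4413 and 4631 at 12 h. All 3 libraries at 6 h were above the other 6.

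Zm00001d000272, at rank 19 by its mean, held 2703, 2647 and 2839 at 0 h, 3282, 4964 and 5030 at 6 h, and 3473, 3517 and 3895 at 12 h. All 6 later libraries were above all 3 at 0 h. In the table it sat between rows with almost no coverage. The means were 24.6 for Zm00001d000270 before it and 34.1 for Zm00001d000277 and Zm00001d000279 after it.

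Zm00001d000339 had its lowest values at 6 h. It held 3539, 3079 and 4563 at 0 h, 2758, 2810 and 1691 at 6 h, and 2975, 3458 and 3087 at 12 h. Every 6 h library was below the other 6. The remaining 4 of the 8 highest genes, Zm00001d000435, Zm00001d000436, Zm00001d000203 and Zm00001d000052, had means from 2434 to 2974, and in each of them the 6 h and 0 h libraries overlapped. Zm00001d000435 and Zm00001d000436 were adjacent rows, with means of 2974 and 2856.

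**Figure D2:**
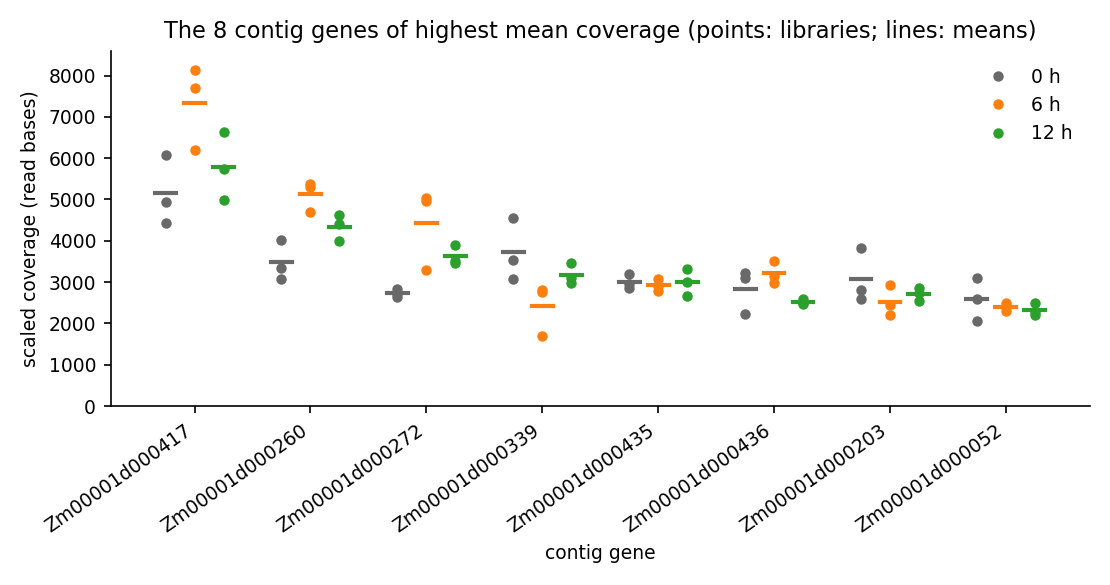
Scaled coverage in read bases of the 8 contig genes of highest mean, with 1 point per library and a line at the mean of each time. Zm00001d000417, Zm00001d000260 and Zm00001d000272 were higher in all 6 h libraries than in all 0 h libraries and Zm00001d000339 was lower, with none past the threshold of the test across all genes.

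At the low end, 35 contig genes (11.7%) had a mean under 200, against 5.79% of the other rows, and 15 (5.03%) had a mean under 1 read, against 1.79%. A value of 0 in at least 1 library was found in 34 contig genes (11.4%) and in 5.19% of the other rows. In single libraries between 2.35% and 6.04% of the contig genes were at 0, above the 1.35% to 1.84% of the other rows in all 9. The share of genes at 0 in at least 1 library was also above that of each of the 10 other blocks, where it ran from 4.61% to 6.01%.

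The lowest 4 genes had coverage in a single library each. Zm00001d000448 held a deposited value of 22 in 6 h replicate 3 and Zm00001d000383 held 73 in 12 h replicate 1. Zm00001d000255 held 73 in 6 h replicate 2, and Zm00001d000343 held 146 in 12 h replicate 3. These amount to at most 2 reads, and at this depth such genes cannot be told from genes with no accessible site.

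Some low genes shared every value with another row. Zm00001d000296 and Zm00001d000297 each held 73 in 6 h replicate 1 and in 12 h replicate 1 and 0 elsewhere. Zm00001d000277 and Zm00001d000279 each held 73 in 0 h replicate 3, 6 h replicates 1 and 3 and 12 h replicate 1. Both pairs are adjacent rows, and whether they share reads was not tested. Another 3 contig genes matched rows outside the contig genes, with a largest value of 146 and 1 to 8 such rows. In all, 7 contig genes (2.35%) had the same 9 values as another row, against 0.411% of the other rows. None of the 7 held more than 146 in any library.

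Runs of neighbouring numbers were used to look at the contig genes in their table order. With a step of at most 5 between successive numbers, they fell into 90 runs, of which 40 held 1 gene and the longest held 21. Whether a run is a contig is not recorded in the table. In the 20 runs of 5 or more genes, the run medians went from 34.1 to 1263. The lowest was the run from Zm00001d000270 to Zm00001d000282, which also holds Zm00001d000272, and the next was Zm00001d000319 to Zm00001d000327, with a median of 197. The highest were Zm00001d000300 to Zm00001d000307, at 1263, and Zm00001d000174 to Zm00001d000184, at 1171.

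Neighbours within a run were only weakly alike. Over 208 pairs of neighbouring contig genes, Spearman's rho of the mean coverage was 0.21, and over 38235 such pairs of other rows it was 0.162. Pairs overlap and may share reads, so these are descriptions. By number, the genes numbered 301 to 400 held the most low genes, 15 of 70 (21.4%) under 200, and those numbered 101 to 200 the fewest in percent, 3 of 71 (4.23%). Block medians ran from 593 for 1 to 100 up to 817 for 401 to 500.

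**Figure D3:**
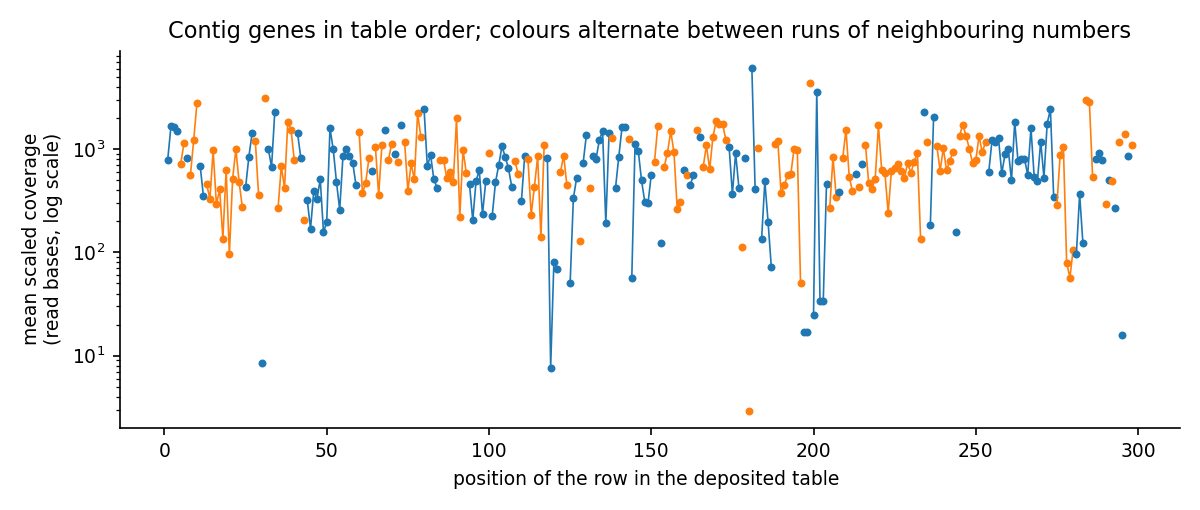
Mean scaled coverage in read bases (log axis) of the 298 contig genes by their position in the deposited table, with lines joining the genes of a run and colours alternating between runs. Of the genes, 250 lie between 200 and 2000. Zm00001d000417 (6097) stands next to Zm00001d000418 (413), while the adjacent Zm00001d000435 (2974) and Zm00001d000436 (2856) are both high.

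The spread between libraries of the same time was close to that of other rows of similar level. The median SD of log2(scaled coverage + 1) within a time was 0.41 for contig genes and 0.38 for the other rows. With the other rows weighted to the levels of the contig genes their median SD was 0.42. The difference was -0.01 with SDs averaged over the times. Computed at each time alone, the difference was -0.016 at 0 h, -0.048 at 6 h and 0.0037 at 12 h. Those values had an SD of 0.03 over the 3 times. Over the contig genes, log2 coverage of libraries of the same time correlated between 0.672 and 0.843, and over the other rows between 0.705 and 0.763. Those correlations are across genes, which are not independent replicates.

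The share of all coverage that fell on contig genes was highest at 6 h. It was 0.692%, 0.683% and 0.683% at 0 h, 0.721%, 0.729% and 0.708% at 6 h, and 0.704%, 0.693% and 0.694% at 12 h. All 3 libraries at 6 h were above the other 6, and all 3 at 12 h were above all 3 at 0 h, by as little as 0.693% against 0.692%. The means were 0.686% ± 0.00524 (SD, n = 3), 0.719% ± 0.0106 (SD, n = 3) and 0.697% ± 0.00611 (SD, n = 3), a ratio of 1.05 between 6 h and 0 h. Counting error alone was 1.64% to 1.89% of the share in a single library. No test is given for this sum, since it pools genes, and the library totals were lowest at 6 h, whose part in the result was not tested.

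In the 10 other blocks the ratio of the mean shares at 6 h and 0 h ran from 0.99 to 1.02, each over at least 2636 rows. Of the contig genes, 170 (57.0%) had a larger mean share at 6 h than at 0 h, 126 a smaller one and 2 the same, and of all rows 51.5% had a larger one. Zm00001d000417, Zm00001d000272 and Zm00001d000260 added most, with 0.00645, 0.00496 and 0.00483 of the 0.0332 percentage points. Without Zm00001d000417 and Zm00001d000272 the difference was 0.0219 points (in a choice of genes made after seeing the values).

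The 13 contig genes of mean 2000 or more held 0.109% of all coverage at 0 h and 0.119% at 6 h, a ratio of 1.09. The 1691 other rows of that level held 11.7% and 11.1%, a ratio of 0.946. In the 285 contig genes under 2000 the ratio was 1.04 and in the other rows under 2000 it was 1.01. Zm00001d000417, Zm00001d000272 and Zm00001d000260 had the largest increases in share, and were left out after their values were seen. The other 10 together differed by -0.00596 percentage points between 6 h and 0 h. Leaving out the largest increases must lower what remains, so nothing is concluded from that value. In all, 7 of the 13 had a smaller share at 6 h, as did 62.6% of the other rows of that level.

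**Figure D4:**
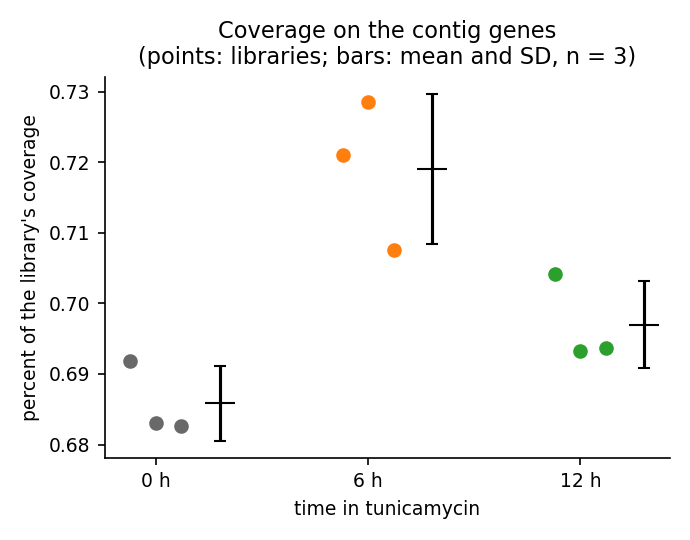
Percent of each library's coverage that fell on the 298 contig genes at 0 h, 6 h and 12 h, with points for libraries and bars for the mean and SD (n = 3), on an axis that does not start at 0. The 3 libraries at 6 h, from 0.708% to 0.729%, lie above all others.

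Genes were then tested one by one for early differences, 6 h against 0 h, with limma fitted to all 38703 rows. Of the contig genes 0 passed an adjusted p of 0.05, against a background of 0% of all rows. At an unadjusted limma p under 0.05 there were 19 contig genes (6.38%, background 6.11%). Of these, 13 had more coverage at 6 h (4.36%, background 2.67%) and 6 had less (2.01%, background 3.45%). Voom weights in limma also called 0 contig genes, with 18 at the unadjusted level, and a square-root scale called 0, with 21. The 6 h libraries were all above the 0 h libraries in 25 contig genes (8.39%, background 5.35%) and all below in 8 (2.68%, background 5.66%). All 6 h libraries were above the 6 others in 8 contig genes (2.68%, background 1.48%) and below them in 4 (1.34%, background 1.51%).

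Of the genes with more coverage at 6 h, the 3 of lowest p were also the 3 most covered contig genes. These rankings are not independent, since the mean coverage includes the 6 h libraries and SEs were smaller at high coverage. The median SE was 0.385 over all contig genes and 0.288 over those of mean 730 or more. The log2 change of Zm00001d000272 was 0.67 (SE 0.16, limma adjusted p 0.678). The change was 0.57 (SE 0.14) for Zm00001d000260 and 0.51 (SE 0.13) for Zm00001d000417, both again with a limma adjusted p of 0.678. Without 6 h replicate 1, its lowest 6 h library, Zm00001d000272 had a value of 0.87 on the log2 scale (limma adjusted p 0.146). Without 6 h replicate 2 the value was 0.57 (limma adjusted p 0.58), and without 6 h replicate 3 it was 0.56 (limma adjusted p 0.677).

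Of the 3 with lower coverage and lowest p, Zm00001d000339 had a log2 change of -0.64 (SE 0.19, limma adjusted p 0.771). It was -0.40 without 6 h replicate 3, its lowest library. Zm00001d000120 held 579.7, 642 and 692 at 0 h, 177, 102 and 492 at 6 h, and 861, 789 and 528 at 12 h. Its 6 h libraries were below the other 6, and the log2 change of -1.61 (SE 0.49) had a limma adjusted p of 0.771. Zm00001d000254 held 150.5, 73.2 and 270.4 at 0 h, 0, 0 and 27.7 at 6 h, and 69.2, 158 and 353 at 12 h. Its values are those of at most 5 reads per library, so a fold change would be set by the pseudocount.

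For 12 h against 0 h, 0 contig genes passed an adjusted limma p of 0.05 (background 0%). At the unadjusted level were 10 (3.36%, background 5.18%), of which 7 were higher (2.35%, background 2.52%) and 3 were lower (1.01%, background 2.65%). Voom weights and the square-root scale in limma called 0 each, with 12 and 10 contig genes at the unadjusted level. The 12 h libraries lay above the 0 h libraries in 19 contig genes (6.38%, background 5.59%) and below in 11 (3.69%, background 5.69%). The lowest limma adjusted p of a contig gene was 0.944.

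Of genes with more coverage at 12 h, Zm00001d000422 had the lowest p. It held 850.3, 439 and 355 at 0 h, 642, 1145 and 1243 at 6 h, and 969, 1105 and 1021 at 12 h. The 12 h libraries were close together and above all 0 h libraries, with a log2 change of 1.01 (SE 0.35, limma adjusted p 0.944). Zm00001d000112 held 1908, 2378 and 1145 at 0 h and 2598, 2578 and 2542 at 12 h, a log2 change of 0.57 (SE 0.24) with the same limma adjusted p. It was 0.27 without 0 h replicate 3, its lowest library at 0 h. The change of Zm00001d000272 was 0.41 (SE 0.16, limma adjusted p 0.944).

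Among those with lower coverage, Zm00001d000347 held 1916, 1929 and 2356 at 0 h, 1657, 1690 and 1436 at 6 h, and 1573, 1398 and 940.1 at 12 h. All later libraries were below all 0 h libraries, and the log2 change at 12 h was -0.69 (SE 0.23, limma adjusted p 0.944). Zm00001d000384 held 65.4, 146 and 135 at 0 h, and 82.1, 305.2 and 0 at 6 h. It was listed at 0 in all 3 libraries at 12 h. Its 0 h values are those of at most 2 reads per library, so a fold change would be set by the pseudocount. Zm00001d000365 held 451, 512 and 403 at 0 h and 415, 210.3 and 64.9 at 12 h, so the groups overlapped.

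Between 6 h and 12 h, 0 contig genes passed an adjusted limma p of 0.05 (background 0%). At the unadjusted level were 22 (7.38%, background 6.34%), of which 9 were higher at 12 h (3.02%, background 3.3%) and 13 were lower (4.36%, background 3.03%). Voom weights called 0 with 19 at the unadjusted level, and the square-root scale 0 with 24. The 12 h libraries were above all 6 h libraries in 20 contig genes (6.71%, background 5.63%) and below in 21 (7.05%, background 5.6%). This comparison shares its 6 h libraries with that of 6 h against 0 h, so a deviation of those libraries enters both.

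Among genes with more coverage at 12 h, the lowest p belonged to Zm00001d000120, Zm00001d000112 and Zm00001d000254. The log2 change of Zm00001d000120 was 1.77 (SE 0.49) and that of Zm00001d000112 was 0.75 (SE 0.24), both with a limma adjusted p of 0.71. Zm00001d000112 had held 1434, 1228 and 2019 at 6 h, below all 12 h libraries. With lower coverage, Zm00001d000001 held 1036, 1416 and 1843 at 6 h and 749, 865 and 794 at 12 h. Its log2 change was -0.80 (SE 0.29, limma adjusted p 0.719). Zm00001d000315 held 837, 1102 and 897 at 0 h, 1723, 1327 and 1372 at 6 h, and 781, 805 and 1090 at 12 h. Its 6 h libraries were above the other 6, and the log2 change from 6 h to 12 h was -0.73 (SE 0.28, limma adjusted p 0.73). Zm00001d000417 had a log2 change of -0.34 (SE 0.13, limma adjusted p 0.73).

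In the limma test over all 3 times together, 0 contig genes passed (background 0%), and 19 (6.38%, background 5.96%) had an unadjusted p under 0.05. Voom weights called 0 with 19 at the unadjusted level, and the square-root scale 0 with 22.

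Over all contig genes the median log2 change was 0.02 for 6 h against 0 h, beside -0.01 for all rows. It was -0.0037 for 12 h against 0 h, beside -0.0016, and -0.07 for 12 h against 6 h, beside 0.01. Medians of single libraries varied by an SD of 0.03 within a time. The first median was 0.08 without 6 h replicate 3, the second -0.04 without 0 h replicate 2, and the last -0.03 without any 1 of the 12 h libraries. Changes of the contig genes were more widely scattered than those of all rows, with an SD over genes of 0.88 against 0.70 for 6 h against 0 h. Among genes with a mean of 730 or more, which is 10 reads, the SDs were 0.33 for 141 contig genes and 0.32 for all 21535 rows.

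**Figure D5:**
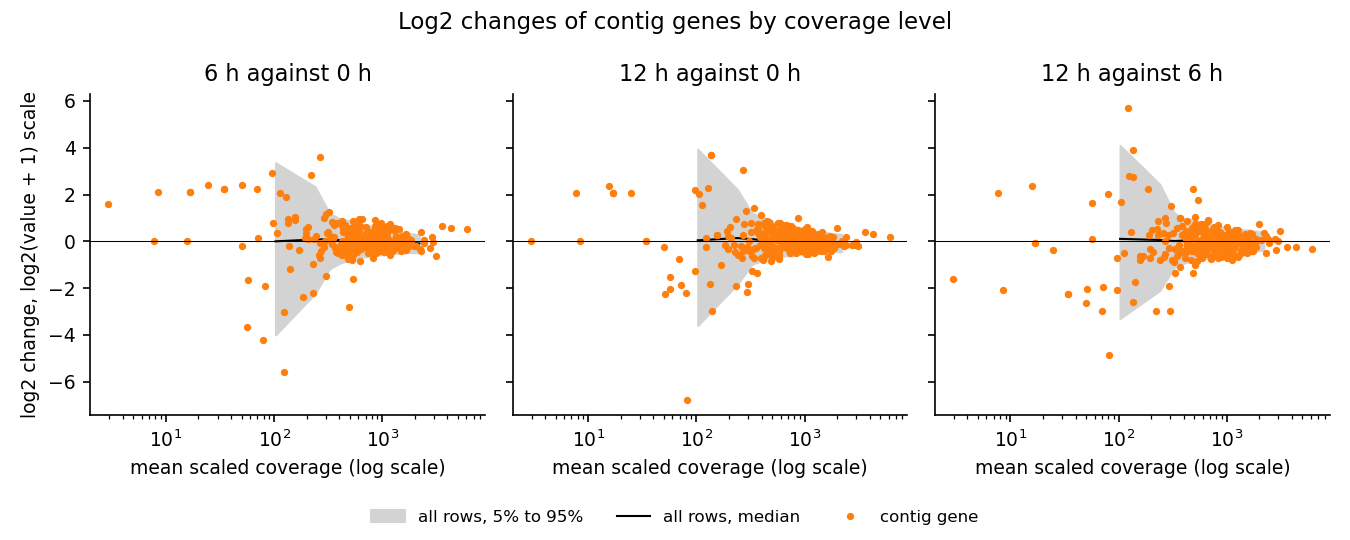
Log2 change, on the log2(value + 1) scale, against mean scaled coverage (log axis) of each contig gene in the 3 comparisons, with the range from 5% to 95% and the median of all rows drawn between the medians of 20 level bins. By construction about 5% of all rows lie above the range of their own bin and about 5% below it. For 6 h against 0 h, 23 contig genes (7.72%) lay above their range and 11 (3.69%) below. For 12 h against 0 h, 11 (3.69%) lay above and 11 (3.69%) below. For 12 h against 6 h, 14 (4.7%) lay above and 24 (8.05%) below.

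How far libraries of different times stood apart was then measured over the contig genes together. The squared difference between a pair of libraries, summed over genes, was divided by the summed coverage, so that independent whole reads give 73 and reads cut at a window edge give less. Pairs of the same time had a mean of 63.9 (range 60.4 to 69.0 over 9 pairs) and pairs of different times 78.0 (range 57.6 to 113 over 27 pairs). In the other rows the means were 67.3 (range 65.8 to 68.4) and 70.5 (range 69.2 to 72.2). Without the 10 contig genes of highest mean the values were 62.0 and 66.3. Those 10 genes alone gave 76.9 (range 37.9 to 116) for the same time and 152 (range 36.0 to 427) for different times. The 13 contig genes of mean 2000 or more gave 72.3 (range 40.6 to 120) and 139 (range 36.3 to 388). The 1691 other rows of that level gave 66.0 (range 60.9 to 71.2) and 74.5 (range 68.2 to 84.9). The ranges did not overlap in the other rows as a whole, and did in each of the remaining sets. Pairs share libraries, and a set of 13 genes is governed by the few named above, so no test is given.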

How the data were processed

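Accessibility was measured in 9 libraries. The authors deposited 1 table of whole-number signal, taken here as coverage in read bases per gene, with 0 columns of no sample. Cutadapt 1.11, Bowtie2 2.2.6, MACS2 and DESeq2 are named, without role or order, per the submitters' processing notes. Not given in the sources used here are the genome build, the window per gene, duplicate removal and any read shift, each of which could change the values. The value 73 occurred 5648 times and its 10 nearest values 45.6 times on average, so the table holds no read counts and no count test was used. Scaling used trimmed means of M values, leaving out 30% of the ratios and 5% of the levels on either side. Scaled coverage went to log2 after adding 1. All 38703 rows and 9 libraries entered a limma fit (limma 3.58.1, R 4.3.3) with trended, robust moderation. A minimum group mean of 1 removed no row. Two-sided p-values were adjusted over all rows (Benjamini-Hochberg). The step was tested on simulated data, drawn as independent whole reads with no further spread between libraries. It therefore does not show how many real changes the test could find in these libraries.

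Named genes were the 8 highest and 4 lowest by mean, the 3 of lowest p in each direction of each comparison, and those at the edge of the identifier range; others named in the text were chosen after their values were seen. Key word lists could not be applied without gene descriptions. The members and lists were chosen with earlier results of these data known. Alternatives changed the scaling, pseudocount, scale, weights, minimum coverage, members and libraries.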

Additional observations from a re-analysis of the deposited data

Results flagged for a closer look

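Among the 22 contig genes named by rule, 1 had every 6 h library above the 0 h mean and every 12 h library below it. No share of all rows with this pattern is given, so the count cannot be judged. Genes picked for low p in these same comparisons are among the 22. Zm00001d000436 had a mean scaled coverage of 2843 ± 542 (SD, n = 3) at 0 h, with 2987, 3514 and 3158 at 6 h and 2482, 2459 and 2580 at 12 h. The 12 h mean was 712.6 below the 6 h mean, a difference of -712.6 in read bases. The log2 change from 6 h to 12 h was -0.36 (SE 0.17, limma adjusted p 0.782), and 0 h replicate 1, at 2220, was below all 12 h libraries.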

How the results depend on the processing

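The count of contig genes called by limma was 0 in all 4 tests under all 17 alternatives run for each, leaving out each library included. With the replicate block it was 0 as well, with 19, 12 and 22 contig genes at an unadjusted p under 0.05 for 6 h against 0 h, 12 h against 0 h and 12 h against 6 h. Deviations of same-numbered libraries correlated between -0.0217 and 0.0186, so nothing shows that the numbers pair the libraries. For named genes, 264 log2 changes were recomputed under alternatives, and all kept direction and stayed short of the threshold, with a lowest limma adjusted p of 0.146. These genes were picked for low p in the same libraries, which favoured keeping direction. Ending the identifiers at 001600 left the same members. The ratio of medians, 0.845, was 0.924 without rows at 0 in any library and 0.809 without the 10 contig genes of highest mean. The first drops rows of low coverage, 11.4% of the contig genes and 5.19% of the other rows. The larger share at 6 h than at 0 h, 0.0332 points, was 0.0231 without those 10 genes and 0.0219 without Zm00001d000417 and Zm00001d000272, and ran from 0.0284 to 0.0389 leaving out each library. Leaving out each library, the median log2 change ran from 0.0 to 0.0834 for 6 h against 0 h, from -0.0396 to 0.0014 for 12 h against 0 h and from -0.0754 to -0.0321 for 12 h against 6 h. Medians of single libraries had an SD of 0.032 within a time.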

Other observations

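The 12 contig genes whose 6 h libraries were all above or all below the 6 others were picked after their values were seen. Above, beside Zm00001d000260 and Zm00001d000315, were Zm00001d000060, Zm00001d000303, Zm00001d000312, Zm00001d000388, Zm00001d000399 and Zm00001d000432. Zm00001d000060 held 719.5, 805 and 697 at 0 h, 1257, 1355 and 1193 at 6 h, and 841, 790.2 and 1060 at 12 h. Zm00001d000303 had means of 1122 at 0 h, 1664 at 6 h and 1142 at 12 h. Below were Zm00001d000339, Zm00001d000120, Zm00001d000254 and Zm00001d000232, the last with means of 407 at 0 h, 135 at 6 h and 373 at 12 h. None passed the threshold. In limma the adjusted p of the change from 0 h to 6 h was 0.771 for Zm00001d000060, 0.804 for Zm00001d000303 and 0.795 for Zm00001d000232.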
